A study of Mus musculus with 31 samples.

Results

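Expression of 7 genes that respond to the sterol-regulated transcription factor SREBP2, namely Hmgcs1, Idi1, Fdps, Fdft1, Sqle, Lss and Insig1, was followed through liver and skeletal muscle of mice with altered ERRα. The genes were taken as a list of symbols and matched by GENCODE vM21 to Ensembl identifiers, which found all 7 among the 35275 identifiers counted in the insulin experiment and among the 54532 counted in the ERRα3SA experiment. Of these, 6 encode enzymes of cholesterol synthesis and 1, Insig1, encodes a regulator of the pathway, and none encodes a lipoprotein receptor. ERRα, encoded by Esrra, is an orphan nuclear receptor that acts on genes of mitochondrial and energy metabolism. The study asked how insulin alters hepatic transcription through ERRα, and what follows when phosphorylated serines of ERRα are replaced.

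The data were 31 RNA-seq libraries in 8 groups, all from mice on the C57BL/6N strain kept on a standard normal diet, and the study used male littermates aged 2 to 3 months unless it stated otherwise. In the insulin experiment, WT mice and mice lacking ERRα in all tissues (KO, ERRα-/-) were fasted overnight for 12 h, given saline or insulin at 1 unit/kg into the peritoneum, and their livers were taken 4 h later. This gave WT saline (n = 4), WT insulin (n = 4), KO saline (n = 4) and KO insulin (n = 3, replicates 1, 2 and 4). In the ERRα3SA experiment, liver and skeletal muscle (gastrocnemius and soleus) came from ERRα3SA mice, a CRISPR/Cas9 knock-in line in which 3 serines of ERRα are alanines, and from WT littermates, giving WT liver, ERRα3SA liver, WT muscle and ERRα3SA muscle (n = 4 each). The labels name no treatment and no feeding state for these mice. Total counts per library ran from 35871419 to 48317108 in the insulin experiment and from 20481405 to 33412022 in the ERRα3SA experiment. Levels below are CPM, counts scaled to equal library sizes within each count table, and the tables were scaled separately, so that no test was made between them.

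Cholesterol is built from acetyl-CoA through mevalonate, isoprenoid diphosphates, squalene and lanosterol. When sterol in the endoplasmic reticulum is low, the escort protein SCAP carries SREBP2 to the Golgi, where proteases encoded by Mbtps1 and Mbtps2 release its active domain to switch on the genes of this route, and when sterol is plentiful, INSIG proteins hold SCAP back. Fasting lowers and refeeding raises the transcripts of the pathway in liver, where insulin is known to promote lipid synthesis, mostly through the SREBP1c form encoded by Srebf1.

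Esrra was first read in every library as a check of the genotype labels. It stood at 32.3, 51.3, 42.7 and 40.5 CPM in WT saline and at 53.7, 96.4, 56.1 and 59.0 CPM in WT insulin, but at 1.63, 0.703, 1.15 and 1.04 CPM in KO saline and at 0.833, 0.576 and 0.298 CPM in KO insulin. Every KO liver was thus far below every WT liver. The log2 fold change of Esrra in KO against WT livers was -5.20 ± 0.24 (SE) with saline (edgeR adjusted p = 2.58e-06) and -6.86 ± 0.37 with insulin (edgeR adjusted p = 3.55e-05). In the ERRα3SA experiment, where the gene is kept and only codons are altered, Esrra was at 27.7, 27.1, 28.2 and 29.4 CPM in WT liver and 29.4, 25.4, 21.1 and 19.2 CPM in ERRα3SA liver. In muscle it was at 90.2, 82.6, 66.9 and 78.0 CPM in WT and at 24.3, 133, 127 and 94.5 CPM in ERRα3SA, with replicate 1 of the latter apart.

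The tissue labels were checked against marker lists of 5 genes each. Hepatocyte markers (Alb, Apoa1, Ttr, Serpina1a, Cps1) summed to 75584 to 104842 CPM in the livers of the insulin experiment and to 54748 to 103896 CPM in those of the ERRα3SA experiment, Alb being the most abundant in each, whereas in muscle they summed to 0.160 to 1.26 CPM. Skeletal muscle markers (Acta1, Ckm, Myh4, Tnnt3, Mb) summed to 76524 to 172663 CPM in muscle and to 0 to 10.5 CPM in all livers but WT insulin replicate 3, where the sum was 73.3 CPM. Kupffer cell and macrophage markers summed to 120.1 to 270.3 CPM in livers of the insulin experiment, to 253 to 361 CPM in the other livers, and to 3.69 to 17.9 CPM in muscle, where the Kupffer gene Clec4f was at 0. The other lists gave sums in livers of 108 to 209 CPM (endothelial), 152 to 264 CPM (stellate and fibroblast), 20.7 to 59.8 CPM (cholangiocyte), 150.0 to 449 CPM (erythroid) and 0.388 to 3.96 CPM (lymphocyte). The adipocyte list summed to 14.1 to 107 CPM in livers of the insulin experiment, nearly all of it from Cidec, a lipid droplet gene that liver also expresses, and to 1.29 to 6.37 CPM in the other livers. In muscle the endothelial, fibroblast, cholangiocyte, erythroid, lymphocyte and adipocyte lists gave 198 to 282, 973 to 2652, 5.88 to 59.4, 77.4 to 156, 0.619 to 2.02 and 60.9 to 134 CPM. The highest fibroblast, cholangiocyte, erythroid and macrophage sums of muscle were all in ERRα3SA muscle replicate 4.

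In GRCm38, Hmgcs1 (ENSMUSG00000093930) lies at chr13:119690379-119708260 and Idi1 (ENSMUSG00000058258) at chr13:8885501-8892451, both on the plus strand. Lss (ENSMUSG00000033105, chr10:76531588-76557138), Insig1 (ENSMUSG00000045294, chr5:28071363-28078662) and Sqle (ENSMUSG00000022351, chr15:59315077-59331192) are also on the plus strand, while Fdft1 (ENSMUSG00000021273, chr14:63145150-63179578) and Fdps (ENSMUSG00000059743, chr3:89093588-89101959) are on the minus strand. Several overlap other genes, and since the strand setting of the counting is not stated, reads of antisense partners cannot be told apart. The protein-coding gene Ctsb, on the opposite strand, covers 20.9% of the main Fdft1 transcript and was counted at 266 to 706 CPM. The gene Gm43738 covers 81.3% of the main Fdps transcript on the same strand. It had 0 counts in all 16 libraries of the ERRα3SA experiment, and Fdps levels there are uncertain, because reads shared with it may have been left uncounted. The opposite-strand genes Gm48342, Gm48574 and 4930483K19Rik cover 16.1%, 10.7% and 8.16% of the main transcripts of Hmgcs1, Idi1 and Lss.

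RefSeq promoter sequences of the GRCm38.p6 build were found for 4 of the 7 genes (Hmgcs1, Idi1, Lss and Insig1). They were scanned on both strands, over the 250 bases before the RefSeq start, because these genes are known as SREBP2 targets. The motifs were a core of the sterol regulatory element (CACCCCA), the CCAAT box (CCAAT), the GC box (GGGCGG) and the ERR half-site (AAGGTCA). Of 32841 promoters, 6.68% held the sterol element core, 33.9% the CCAAT box, 32.7% the GC box and 4.08% the ERR half-site. Hmgcs1 alone among the 4 held the sterol element core, 1 match starting 136 bases before the start, and it alone held the ERR half-site, 1 match on the opposite strand starting 246 bases before the start. A CCAAT box was found 3 times in Hmgcs1 and 1 time each in Lss and Insig1, all read as ATTGG, and GC boxes were found 2, 2 and 3 times in the same order. The matches of Idi1 lay after its start in GENCODE, so that they are not counted. The stretches below, 5′ to 3′ on the plus strand, show the Hmgcs1 promoter (chr13:119690101-119690350), the part of the Lss promoter before its annotated start (chr10:76531355-76531587) and that of Insig1 (chr5:28071162-28071362), with capitals on the sterol element core and CCAAT boxes. A match describes the letters and is no evidence of binding.
Hmgcs1: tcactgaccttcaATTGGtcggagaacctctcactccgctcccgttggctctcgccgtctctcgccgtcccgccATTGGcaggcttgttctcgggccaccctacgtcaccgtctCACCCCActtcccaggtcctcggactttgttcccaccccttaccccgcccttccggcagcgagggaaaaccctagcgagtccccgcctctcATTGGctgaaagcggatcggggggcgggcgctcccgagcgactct
Lss: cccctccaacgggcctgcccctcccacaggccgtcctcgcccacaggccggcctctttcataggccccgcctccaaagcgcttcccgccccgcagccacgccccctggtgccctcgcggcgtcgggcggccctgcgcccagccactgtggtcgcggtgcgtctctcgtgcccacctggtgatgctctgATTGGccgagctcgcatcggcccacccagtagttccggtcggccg
Insig1: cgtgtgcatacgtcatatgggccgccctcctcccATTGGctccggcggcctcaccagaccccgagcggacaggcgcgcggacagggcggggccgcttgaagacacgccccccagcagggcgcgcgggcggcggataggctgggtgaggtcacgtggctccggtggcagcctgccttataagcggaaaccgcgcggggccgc

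Early in the route stands Hmgcs1, which makes HMG-CoA in the cytosol. Its levels were 131, 43.9, 106 and 115 CPM in WT saline livers (replicates 1 to 4), 71.0, 60.6, 78.3 and 65.3 CPM in WT insulin, 46.9, 105, 61.5 and 316 CPM in KO saline, and 49.4, 53.9 and 57.8 CPM in KO insulin. WT saline replicate 2 lay below all WT insulin livers, KO saline replicate 4 was above all the other livers, and all 3 KO insulin livers were below all 4 WT insulin livers. Idi1 interconverts the 5-carbon isoprenoid diphosphates. It was at 32.8, 4.04, 14.5 and 14.2 CPM in WT saline, 7.01, 4.48, 11 and 8.56 CPM in WT insulin, 4.41, 13.1, 5.81 and 50.4 CPM in KO saline, and 1.82, 4.50 and 6.57 CPM in KO insulin, again with a low WT saline replicate 2 and a high KO saline replicate 4. Fdps joins these units into farnesyl diphosphate, the branch point to sterols and prenylated proteins. It stood at 43.6, 17.5, 25.7 and 23.0 CPM in WT saline, 33.5, 31.6, 25.6 and 27.2 CPM in WT insulin, 14.9, 24.9, 17.0 and 103 CPM in KO saline, and 18.3, 31.3 and 32.4 CPM in KO insulin, so that all 4 groups overlapped.

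Fdft1, squalene synthase, takes the first step committed to sterols. Its levels were 52.6, 30.1, 49.1 and 52.7 CPM in WT saline, 29.6, 23.6, 26 and 25.5 CPM in WT insulin, 21.6, 38.5, 25.7 and 72.9 CPM in KO saline, and 21.8, 18.7 and 21.3 CPM in KO insulin. WT saline and WT insulin livers did not overlap, although WT saline replicate 2 came close, and all KO insulin livers lay below all WT insulin livers. Sqle, which oxidises squalene and is a rate-limiting enzyme, was at 47.2, 12.9, 25.8 and 23.1 CPM in WT saline, 25.2, 11.1, 22.3 and 19.8 CPM in WT insulin, 9.05, 18.3, 15 and 90.1 CPM in KO saline, and 12.7, 17.3 and 20.5 CPM in KO insulin. Lss, which closes the ring to lanosterol, was at 20.5, 14.0, 18.4 and 20.9 CPM in WT saline, 26.1, 19.5, 24.1 and 27.0 CPM in WT insulin, 18.3, 17.1, 14.2 and 35.2 CPM in KO saline, and 21.9, 22.5 and 22.7 CPM in KO insulin. Sqle had overlapping groups. Those of Lss overlapped between treatments and between genotypes, but its KO insulin livers all lay above its WT saline livers. Both genes were highest in KO saline replicate 4. Insig1, which retains SCAP in the endoplasmic reticulum and is itself switched on by SREBP2, was at 81.6, 38.2, 91.8 and 111 CPM in WT saline, 132, 73.1, 66.2 and 61.0 CPM in WT insulin, 34.5, 61.4, 46.5 and 132 CPM in KO saline, and 56.8, 49.8 and 52.0 CPM in KO insulin. Here WT insulin replicate 1 and KO saline replicate 4 were the highest, and the KO insulin livers were again below all WT insulin livers. The share of all genes whose groups lay apart in this way was not counted, for these groups or those below.

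**Figure D1:**
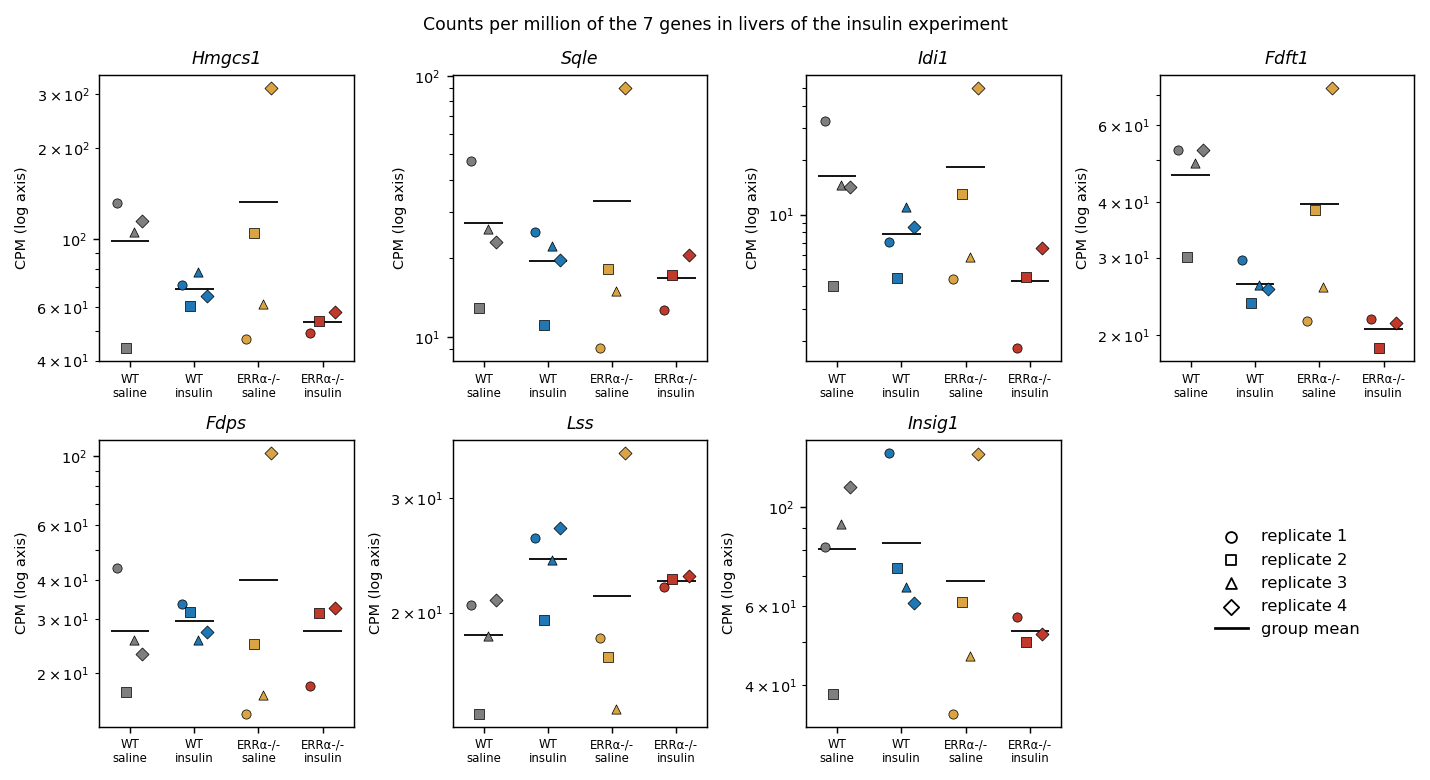
CPM on a log axis of each of the 7 genes in the 15 livers of the insulin experiment, by group, with a symbol for each replicate and a line at the arithmetic mean of the group. KO saline replicate 4 is the highest liver for 6 of the 7 genes and lies next to WT insulin replicate 1 for Insig1, while WT saline replicate 2 is the lowest of its group for all 7.

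Per kilobase of the main transcript, the scale on which genes can be compared, WT saline livers carried most Insig1 (29.9 ± 11.4 CPM per kb, SD) and Hmgcs1 (28.6 ± 11), then Fdps (19.8 ± 8.16), Fdft1 (12.5 ± 2.92), Sqle (9.89 ± 5.23), Idi1 (5.42 ± 3.96) and Lss (3.95 ± 0.680). No neighbours in this order differed by more than the larger of their SDs. In WT livers of the ERRα3SA experiment the order was Insig1 (229 ± 15.4), Hmgcs1 (163 ± 24.4), Fdft1 (51.6 ± 5.83), Idi1 (49.9 ± 5.99), Sqle (49.1 ± 4.80), Lss (21.7 ± 2.14) and Fdps (8.10 ± 1.39), where Fdft1, Idi1 and Sqle lay within their spread of each other. Except for Fdps, whose counting is in doubt there, each gene was at a higher level in these livers than in the fasted WT livers, but the tables were scaled separately, and fasting, experiment and count table cannot be told apart.

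The library of KO saline replicate 4 stood apart for these genes and not for depth or for markers of other cells. Its total count was 42874994 and its mitochondrial share 3.16%, against 39250853 to 48317108 and 3.17% to 3.91% in the other KO saline livers. Its sums of the hepatocyte (76619 CPM), endothelial (144 CPM), stellate and fibroblast (182 CPM), cholangiocyte (21.1 CPM), adipocyte (47.4 CPM), erythroid (178 CPM) and lymphocyte (0.621 CPM) lists were inside the range of that group, its Kupffer sum (156 CPM) was the highest of the 4 by a narrow margin, and all 5 muscle markers were at 0, which was also so in replicate 3. WT saline replicate 2 had the highest Kupffer (270.3 CPM), endothelial (207 CPM), stellate and fibroblast (207 CPM) and erythroid (449 CPM) sums of WT saline, and their part in its low values was not tested. In bulk tissue, fewer hepatocytes and less of a transcript in each hepatocyte cannot be told apart.

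Insulin given to fasted WT mice went with lower Fdft1, and calls among the other genes went in both directions. A gene was called where the unadjusted p was under 0.05 and the fold change at least 1.2, the thresholds of the study, here with edgeR, and p-values were also adjusted over all genes tested. By the first rule 3 of the 7 genes were called, 2 lower and 1 higher, beside 2322 of 13463 genes tested (17.2%). After adjustment by edgeR 1 of 7 passed, beside 425 genes (3.16%). Fdft1 fell by 0.82 on the log2 scale (SE 0.18, edgeR adjusted p = 0.0321), all 4 insulin livers lying below all 4 saline livers. Idi1 was called lower, at -1.08 ± 0.49 (edgeR adjusted p = 0.281), and Lss was called higher, at 0.39 ± 0.16 (edgeR adjusted p = 0.238). Hmgcs1 (-0.53 ± 0.27, edgeR adjusted p = 0.335) and Sqle (-0.48 ± 0.35, edgeR adjusted p = 0.518) were not called, and Fdps (0.10 ± 0.24) and Insig1 (0.04 ± 0.32) lay near 0 with all livers in. The median over the 7 was -0.48, beside 0.00 over all genes tested. DESeq2, the tool of the study, also called 3, with 1 after adjustment, but it called Hmgcs1 lower (-0.52, DESeq2 adjusted p = 0.232) and did not call Idi1 (-1.08, DESeq2 adjusted p = 0.316).

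The call of Fdft1 in WT livers held without any 1 of the 8 livers (-0.98 to -0.75), and the other calls did not. Without WT saline replicate 2, the liver with the low values, Hmgcs1 was at -0.77 (edgeR adjusted p = 0.0230), Sqle was called lower (-0.71), and Lss was no longer called (0.28). Without WT saline replicate 1, Sqle was at -0.08 and Hmgcs1 at -0.36, Fdps was called higher (0.42) and Idi1 was not called (-0.50). Insig1 was at -0.27 without WT insulin replicate 1, its highest liver, and at 0.24 without WT saline replicate 4, called in neither. The call of Idi1 was also lost without WT saline replicate 3 (-1.13) or 4 (-1.14) or WT insulin replicate 1 (-1.03), 2 (-0.89) or 4 (-1.13). That of Lss was lost without WT saline replicate 3 (0.39) or WT insulin replicate 1 (0.35), 3 (0.39) or 4 (0.33). WT insulin replicate 2 was the lowest of its group for Hmgcs1, Idi1, Fdft1, Sqle and Lss, and its mitochondrial share was 1.88% against 3.88% to 4.17% in the others, whose part in these values was not tested. The adipocyte list, mostly Cidec, also differed without overlap between WT saline (14.1 to 50.1 CPM) and WT insulin livers (58.0 to 107 CPM), and its relation to the 7 genes was not tested.

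Insulin given to KO mice gave 3 of the 7 genes called, all lower, beside 2353 of 13684 genes (17.2%). With edgeR 0 of the 7 passed after adjustment, beside 398 genes (2.91%), 3 had an unadjusted p under 0.05, and DESeq2 called 2 (not Hmgcs1, at -1.29), with 0 after adjustment. The calls were Hmgcs1 at -1.30 ± 0.54 (edgeR adjusted p = 0.24), Idi1 at -2.10 ± 0.79 (edgeR adjusted p = 0.189) and Fdft1 at -0.95 ± 0.35 (edgeR adjusted p = 0.182). Sqle (-0.98 ± 0.65), Fdps (-0.54 ± 0.59), Insig1 (-0.37 ± 0.36) and Lss (0.08 ± 0.26) were not called, and the median was -0.95, beside -0.02 over all genes. Saline and insulin groups overlapped for all 7 genes, and the sizes rested on KO saline replicate 4. Without it Hmgcs1 was at -0.42 and Idi1 at -0.86, neither called, Fdft1 was still called lower (-0.48), Lss was called higher (0.43), and Sqle (0.24), Fdps (0.52) and Insig1 (0.15) were above 0. Leaving out KO insulin replicate 2 ended all 3 calls (Hmgcs1 -1.30, Idi1 -2.13, Fdft1 -0.88), leaving out replicate 1 ended those of Hmgcs1 (-1.24) and Idi1 (-1.73), and leaving out replicate 4 ended that of Hmgcs1 (-1.35).

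**Figure D2:**
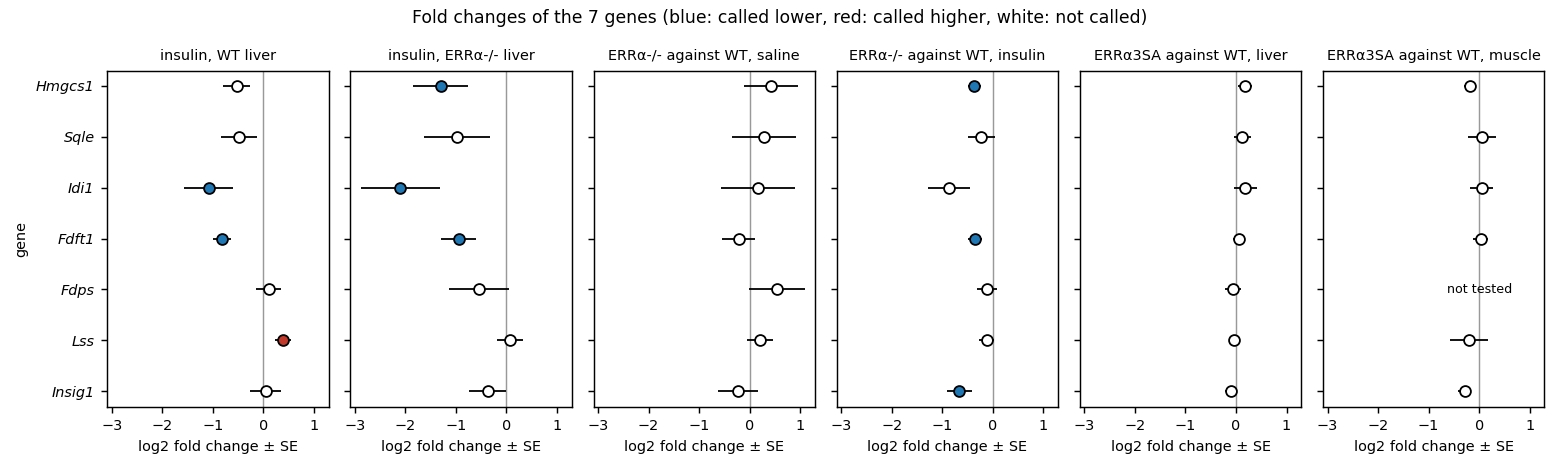
Log2 fold change of each gene (points) with its standard error (bars) in 6 comparisons, on 1 scale, with calls in colour. Fdft1 is called lower with insulin in both WT and KO livers, and Insig1, Hmgcs1 and Fdft1 are called lower in KO than WT livers given insulin.

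The next comparisons ask what the loss of ERRα did at each treatment. With saline, 0 of the 7 genes were called between KO and WT livers by edgeR, with 0 at an unadjusted p under 0.05 and 0 by DESeq2, beside 1520 of 13481 genes (11.3%), and 0 passed after adjustment, beside 11 genes (0.0816%). The values were 0.42 ± 0.53 for Hmgcs1, 0.17 ± 0.73 for Idi1, 0.54 ± 0.55 for Fdps, -0.22 ± 0.33 for Fdft1, 0.28 ± 0.63 for Sqle, 0.20 ± 0.25 for Lss and -0.24 ± 0.40 for Insig1, with a median of 0.20 beside 0.00 over all genes. These values moved with single livers. Without KO saline replicate 4 all 7 genes were below 0, and 3 were called lower, Sqle at -0.95 (edgeR adjusted p = 0.438), Fdft1 at -0.69 (edgeR adjusted p = 0.362) and Insig1 at -0.76 (edgeR adjusted p = 0.452). Refits of this comparison with 1 liver left out called 1284 to 1984 of all genes, and the 7 genes vary together. Hmgcs1 (-0.47), Idi1 (-1.08), Fdps (-0.53) and Lss (-0.16) were not called. Without WT saline replicate 1, Idi1 (0.76), Sqle (0.68) and Fdps (0.86) were further above 0, and without WT saline replicate 2 Idi1 was below 0 (-0.15). Without KO saline replicate 1, Fdft1 (-0.01) and Insig1 (-0.02) were near 0 and Hmgcs1 was at 0.70. Lss was at 0.35 without KO saline replicate 3. None of them were called in these refits.

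With insulin, 3 of the 7 genes were called between KO and WT livers, all lower, beside 1365 of 13665 genes (9.99%). By edgeR 0 passed after adjustment, beside 8 genes (0.0585%), 3 had an unadjusted p under 0.05, and DESeq2 called 4 (also Idi1, at -0.85), with 0 after adjustment. Insig1 was at -0.66 ± 0.25 (edgeR adjusted p = 0.397), Hmgcs1 at -0.37 ± 0.13 (edgeR adjusted p = 0.36) and Fdft1 at -0.36 ± 0.14 (edgeR adjusted p = 0.406). Idi1 was at -0.86 ± 0.42 (edgeR adjusted p = 0.52), and Sqle (-0.23 ± 0.26), Fdps (-0.12 ± 0.20) and Lss (-0.12 ± 0.14) were also below 0, giving a median of -0.36 beside -0.02 over all genes. No call held without every single liver. Insig1 was at -0.35 without WT insulin replicate 1, its highest liver, and its call was lost without KO insulin replicate 2 (-0.62) or 4 (-0.64). That of Hmgcs1 was lost without KO insulin replicate 1 (-0.31), and that of Fdft1 without WT insulin replicate 1 (-0.29) or KO insulin replicate 2 (-0.29) or 4 (-0.37). Idi1 was called without WT insulin replicate 2 (-1.05) or KO insulin replicate 4 (-1.29). Without KO insulin replicate 1, Idi1 was at -0.49 and not called, Fdps was above 0 (0.10) and Sqle was at -0.06. When all groups shared 1 fit and 1 estimate of spread, 0 of the 7 were called (Hmgcs1 -0.36, Fdft1 -0.35, Insig1 -0.65). Hepatocyte markers also differed between these groups without overlap, summing to 97458 to 104492 CPM in KO and 78543 to 87542 CPM in WT livers given insulin, and their part in these values was not tested.

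Whether insulin acted differently in the KO and WT genotypes was tested by the interaction term, and edgeR called 0 of the 7 genes, with 0 at an unadjusted p under 0.05 and 0 by DESeq2, beside 1289 of 14670 genes (8.79%). By edgeR 0 passed after adjustment, with 0 at an unadjusted p under 0.05 and 0 by DESeq2, beside 0 of all genes (0%). The differences were -0.78 ± 0.65 for Hmgcs1, -1.03 ± 0.99 for Idi1, -0.65 ± 0.69 for Fdps, -0.13 ± 0.41 for Fdft1, -0.50 ± 0.80 for Sqle, -0.31 ± 0.33 for Lss and -0.42 ± 0.54 for Insig1, with a median of -0.50 beside -0.02 over all genes. Without KO saline replicate 4 all 7 were above 0 (0.12, 0.22, 0.43, 0.34, 0.73, 0.05 and 0.11 in that order). Other livers moved them further below 0. Without WT saline replicate 1, Idi1 was at -1.61, Fdps at -0.97 and Sqle at -0.90. Without KO saline replicate 1, Fdft1 was at -0.33 and Insig1 at -0.64, none of them called. The comparisons above share groups, since WT saline and KO saline livers each enter a treatment and a genotype comparison, so that 1 unusual liver moves both. Set side by side, Fdft1 was at -0.82 and -0.95 for insulin in WT and KO livers and at -0.22 and -0.36 for KO against WT with saline and with insulin.

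A list of 12 further enzymes of sterol synthesis was mixed in the same livers. In WT livers insulin gave 6 of 12 called, 3 higher and 3 lower, 1 of them after adjustment by edgeR, with a median of -0.16, beside 17.2% of all genes called in each genotype. Pmvk, phosphomevalonate kinase, was at 8.08, 6.02, 5.76 and 6.01 CPM in WT saline and 23.5, 15.8, 30.8 and 38.2 CPM in WT insulin, and rose by a log2 fold change of 2.07 ± 0.25 (edgeR adjusted p = 0.00265). In KO livers Pmvk was at 7.58, 7.52, 4.94 and 11.9 CPM with saline and 28.9, 19.6 and 42.5 CPM with insulin (1.92 ± 0.30, edgeR adjusted p = 0.0111). In neither genotype did saline and insulin livers overlap for Pmvk. Also called in WT livers were Msmo1 (-0.82 ± 0.26), Acat2 (-0.53 ± 0.17) and Sc5d (-0.41 ± 0.16), lower, and Hsd17b7 (0.43 ± 0.18) and Ebp (0.37 ± 0.15), higher. In KO livers 5 of 12 were called, 1 after adjustment by edgeR, with a median of -0.46, those besides Pmvk being Msmo1 (-1.41 ± 0.59), Acat2 (-0.67 ± 0.16) and Sc5d (-0.63 ± 0.17), lower, and Ebp (0.29 ± 0.10), higher. Msmo1 in KO livers was highest in KO saline replicate 4, the levels being 13.9, 33.4, 23.7 and 119.9 CPM with saline and 15.2, 18.4 and 20.3 CPM with insulin. Its fold change without that liver was not tested. That liver was also the highest of KO saline for Cyp51 (149 CPM against 17.7 to 51.1 CPM), Mvk (16.5 against 4.54 to 5.24 CPM) and Mvd (14.1 against 0.787 to 3.05 CPM). Its part in the median of the list was not tested. By edgeR 0 of 12 were called between KO and WT livers with saline (median 0.08), 0 with insulin (median -0.17) and 0 in the interaction (median -0.19), each with 0 at an unadjusted p under 0.05, beside 11.3%, 9.99% and 8.79% of all genes.

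Among 6 genes of SREBP processing, Insig2, the second INSIG gene, went the opposite way to Fdft1. It was at 399, 683, 293 and 252 CPM in WT saline and 932, 1262, 904 and 717 CPM in WT insulin, with no overlap, and rose by a log2 fold change of 1.23 ± 0.29 (edgeR adjusted p = 0.0476), the only 1 of the 6 called (median -0.07), beside 17.2% of all genes. In KO livers Insig2 was at 696, 436, 598 and 273 CPM with saline and 779, 1224 and 954 CPM with insulin (0.97 ± 0.28, edgeR adjusted p = 0.0931). There 4 of 6 were called (median 0.12), beside 17.2% of all genes, Insig2, Mbtps2 (0.53 ± 0.11, edgeR adjusted p = 0.035) and Scap (0.39 ± 0.12) higher and Srebf1 (-0.77 ± 0.19) lower. Between KO and WT livers 0 of 6 were called with saline (median -0.07) and 0 of 6 in the interaction (median 0.03) by edgeR, each with 0 at an unadjusted p under 0.05, beside 11.3% and 8.79% of all genes. With insulin 1 of 6 was called (median 0.09), beside 9.99% of all genes, Srebf1, at 14.8, 20.4 and 20.3 CPM in KO against 60.3, 28.6, 27.6 and 43.2 CPM in WT livers (-1.12 ± 0.27, edgeR adjusted p = 0.176). Srebf2, which encodes SREBP2, was called in none of these comparisons and ranged from 46.8 to 94.0 CPM, highest in KO saline replicate 4.

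Of 9 genes of sterol export, esterification, transport and bile acid synthesis, insulin gave 3 called in WT livers (median -0.20), beside 17.2% of all genes, all lower, namely Stard4, a sterol carrier (-1.04 ± 0.26, edgeR adjusted p = 0.0567), Abcg8 (-0.66 ± 0.13, edgeR adjusted p = 0.0187) and its partner in sterol export Abcg5 (-0.42 ± 0.12). In KO livers 2 of 9 were called (median 0.11), beside 17.2%, Stard4 (-0.98 ± 0.31) and Soat2 (-0.43 ± 0.18), lower. KO against WT livers gave Abcg8 (-0.45 ± 0.16) and Abcg5 (-0.40 ± 0.16) lower with saline (median -0.01), Cyp8b1 (0.32 ± 0.14) higher with insulin (median -0.05), and 0 of 9 in the interaction (median 0.24), by edgeR with 0 at an unadjusted p under 0.05, beside 11.3%, 9.99% and 8.79% of all genes. Of 6 genes of fatty acid synthesis, 3 were called with insulin in WT livers (median 0.01), beside 17.2% of all genes, Acly (0.51 ± 0.14) higher and Acaca (-0.54 ± 0.15) and Fasn (-0.64 ± 0.23) lower. In KO livers 5 of 6 were called (median -0.63), beside 17.2%, Acly (0.54 ± 0.20) higher and Acaca (-0.62 ± 0.19), Fasn (-0.93 ± 0.32), Scd1 (-0.96 ± 0.34) and Elovl6 (-0.64 ± 0.18) lower. KO against WT livers gave 0 of 6 by edgeR with saline (median 0.18), with 0 at an unadjusted p under 0.05, beside 11.3% of all genes, and with insulin 1 of 6 (median -0.12), beside 9.99%, Scd1 (-1.88 ± 0.33, edgeR adjusted p = 0.119). In the interaction Scd1 (-1.15 ± 0.53) and Elovl6 (-0.56 ± 0.23) were called lower (median -0.27), 2 of 6 beside 8.79% of all genes.

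**Figure D3:**
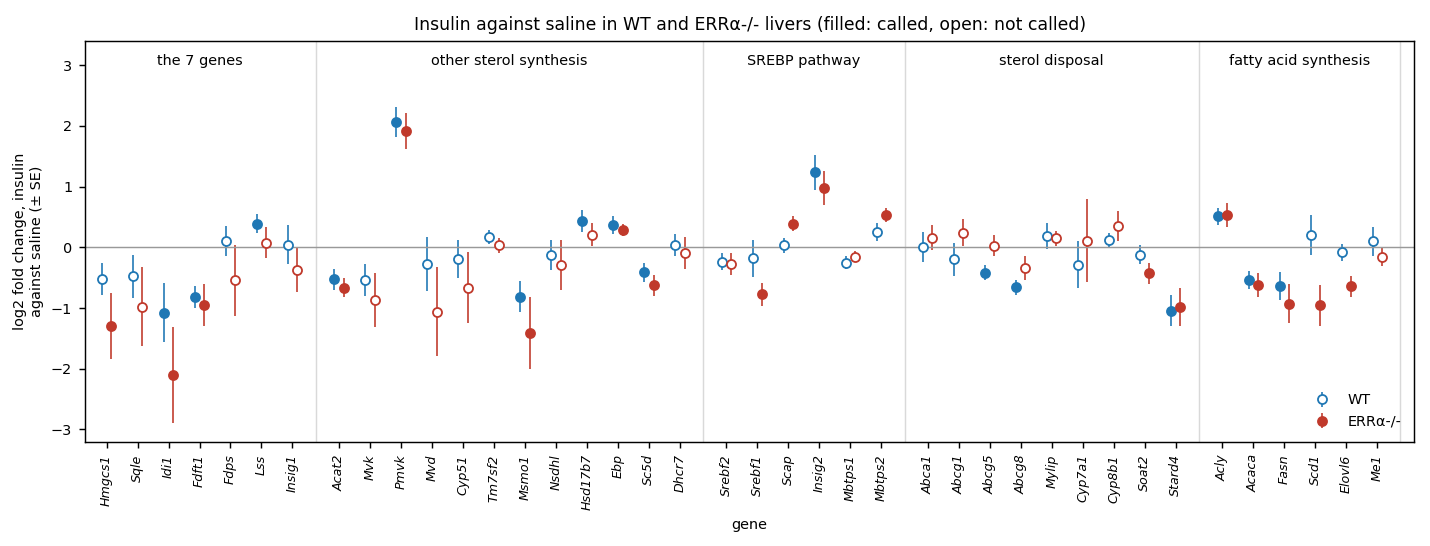
Log2 fold change of insulin against saline (points) with its standard error (bars) in WT and KO livers for the 7 genes and 4 further gene lists, filled where called. Pmvk and Insig2 lie far above 0 in both genotypes, opposite to Idi1, Fdft1, Msmo1 and Stard4.

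The 7 genes varied together from liver to liver. Over the 15 livers of the insulin experiment all 21 pairs of genes had a Pearson correlation of log2 CPM above 0, from 0.23 (Fdft1 with Lss) to 0.93 (Hmgcs1 with Idi1), with a median of 0.73. After removal of group means the correlations ran from 0.69 to 0.98, with a median of 0.86, so that animals of the same group differed along an axis shared by the genes. Points share the scaling of their library, and KO saline replicate 4 weighs on every pair. On the mean of the standardised log2 levels of the 7 genes, that liver scored 2.29, WT saline replicate 1 scored 0.96, and the lowest were KO saline replicate 1 (-1.07) and WT saline replicate 2 (-0.98).

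The genes most like this mean over the 15 livers, as a description with no test, were Cyp51 (r = 0.956), Msmo1 (0.933), Mvk (0.889) and Mvd (0.860), all of sterol synthesis, then Mgat4b (0.831), Fez2 (0.830), Acsl3 (0.826), S1pr2 (0.825), Mid1ip1 (0.820) and Col27a1 (0.815). Without KO saline replicate 4 their correlations were 0.948, 0.857, 0.765, 0.738, 0.813, 0.681, 0.761, 0.691, 0.715 and 0.771. The median over all 14670 genes, with that liver, was 0.0232. Over the 8 livers of the ERRα3SA experiment the 10 genes gave 0.886, 0.810, 0.462, 0.603, -0.297, 0.419, 0.748, 0.453, -0.295 and -0.540, so that Mgat4b, Mid1ip1 and Col27a1 turned in sign. Srebf2 followed the mean at 0.812 (0.625 without KO saline replicate 4), and Insig2 ran against it at -0.616 (-0.483 without). Pmvk, which moved most with insulin in WT livers among the enzymes, was at -0.0222. Cyp51 itself, lanosterol demethylase, was at 87.5, 24.8, 59.7 and 54.4 CPM in WT saline and 17.7, 51.1, 24.2 and 149 CPM in KO saline. Like each of the 7 genes, it was lowest of WT saline in replicate 2 and highest of KO saline in replicate 4.

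**Figure D4:**
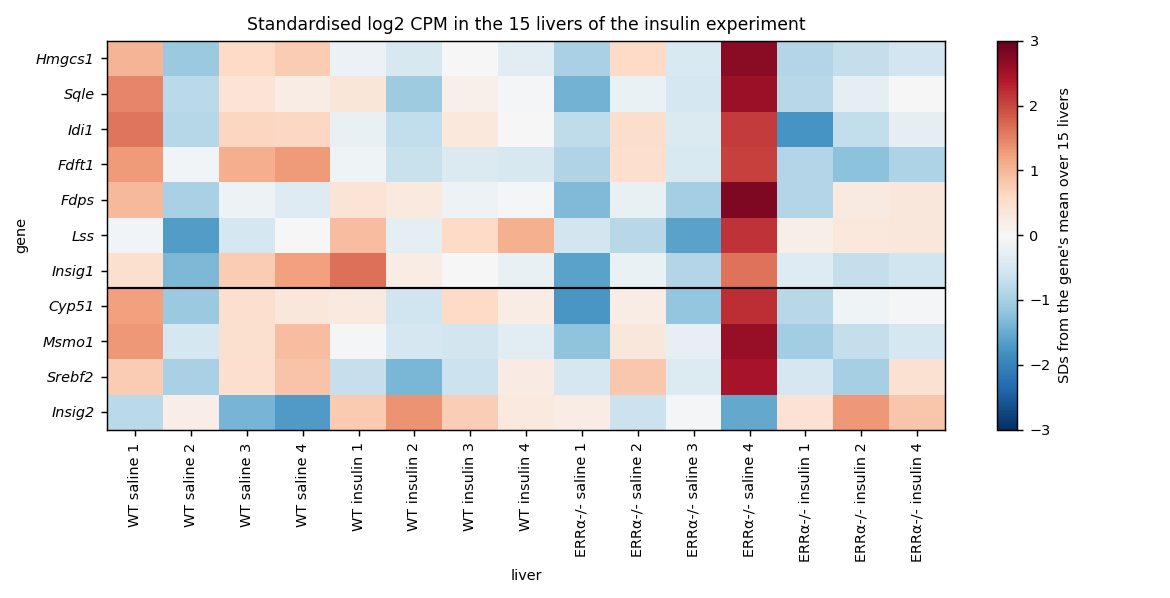
Log2 CPM of the 7 genes and of Cyp51, Msmo1, Srebf2 and Insig2 in each of the 15 livers, as standard deviations from the mean of the gene (colour scale). KO saline replicate 4 is high across the 7 genes and low in Insig2, and WT saline replicate 2 is low in the 7 genes except Fdft1, where it lies near the mean.

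In the ERRα3SA experiment the levels of the 7 genes in mutant livers overlapped with those in WT livers. Hmgcs1 was at 664, 566, 577 and 458 CPM in WT liver and 583, 545, 687 and 745 CPM in ERRα3SA liver. Idi1 was at 162, 151, 165 and 125 against 140.1, 131, 144 and 269 CPM, and Fdps at 11.2, 13.7, 9.09 and 10.8 against 9.78, 8.49, 11.9 and 12.9 CPM. Fdft1 was at 208, 197, 199 and 159 against 195, 171, 203 and 224 CPM, and Sqle at 144, 141, 141 and 116 against 129, 117, 136 and 207 CPM. Replicate 4 of ERRα3SA liver was the highest of the 8 livers for Hmgcs1, Idi1, Fdft1 and Sqle. Lss was at 112, 95.3, 108 and 90.7 against 97.5, 92.3, 105 and 98.8 CPM, and Insig1 at 656, 648, 574 and 589 against 669, 493, 624 and 513 CPM, with no liver apart. By edgeR 0 of the 7 were called, with 0 at an unadjusted p under 0.05 and 0 by DESeq2, beside 651 of 13339 genes (4.88%), and 0 passed after adjustment, beside 0 of all genes (0%). The log2 fold changes were 0.18 ± 0.14 for Hmgcs1, 0.19 ± 0.22 for Idi1, -0.05 ± 0.16 for Fdps, 0.06 ± 0.11 for Fdft1, 0.13 ± 0.17 for Sqle, -0.04 ± 0.08 for Lss and -0.10 ± 0.11 for Insig1, with a median of 0.06 beside 0.00 over all genes.

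Replicate 4 of ERRα3SA liver differed in its other lipid genes as well. Its Scd1 was at 607 CPM against 12469 to 38634 CPM in the other 7 livers, and its Fasn at 342 CPM against 828 to 2465 CPM. Its Pmvk (39.9 CPM against 73.0 to 109 CPM), Insig2 (299.6 CPM against 381 to 575 CPM) and Srebf1 (201 CPM against 290.0 to 461 CPM) were lowest of the 8 livers, and its hepatocyte marker sum of 54748 CPM was below the 86184 to 103896 CPM of the rest. Its Kupffer (361 CPM), endothelial (209 CPM) and cholangiocyte (59.8 CPM) sums were the highest of the 8 livers. The part of these differences in its Sqle and Idi1 levels was not tested. Without it Sqle was at -0.09 and Idi1 at -0.12 against WT, still not called. Signs also turned without single WT livers, for Fdps (0.06) without replicate 2 and for Lss (0.01) without replicate 1. Without WT liver replicate 4, Fdft1 was at -0.02 and Hmgcs1 at 0.09, and none of these were called. Over the 8 livers 18 of 21 gene pairs correlated above 0 (-0.32 to 0.99, median 0.46), and the others paired Insig1 with Hmgcs1, Sqle and Idi1. Of the other lists, edgeR called 0 of 12 sterol synthesis genes (median -0.04), 0 of 6 SREBP genes (median 0.05) and 0 of 6 fatty acid genes (median 0.23), each with 0 at an unadjusted p under 0.05, and 1 of 9 disposal genes (median -0.02), Soat2 (-0.36 ± 0.16), beside 4.88% of all genes.

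**Figure D5:**
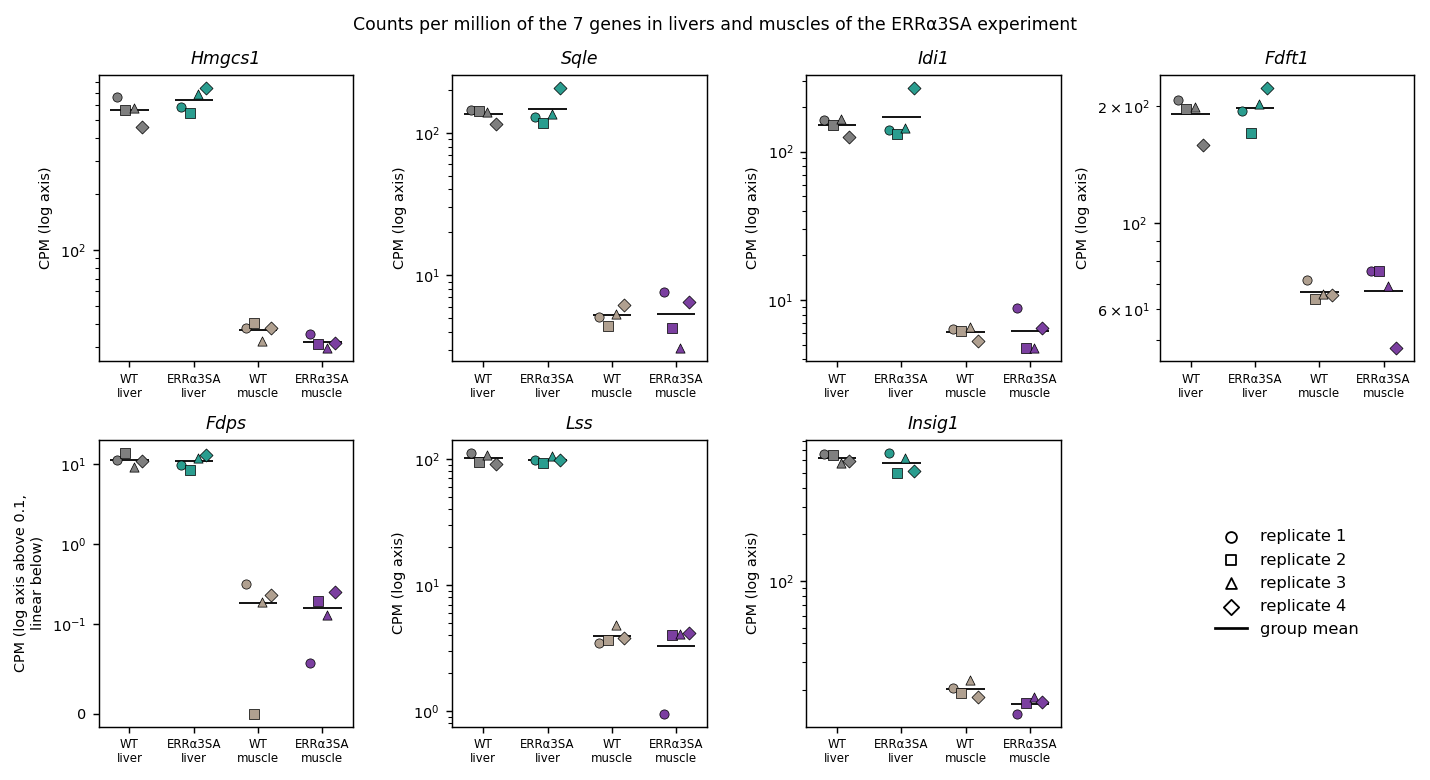
CPM on a log axis (linear near 0 for Fdps) of each of the 7 genes in liver and muscle of WT and ERRα3SA mice, with a symbol for each replicate and a line at the arithmetic mean of the group. Liver and muscle are apart for all 7 genes, and the genotypes overlap everywhere but for Insig1 in muscle.

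Muscle carried less of these transcripts than liver. Hmgcs1 was at 37.9, 40.4, 32.2 and 38.1 CPM in WT muscle and 35.5, 31.3, 29.6 and 31.5 CPM in ERRα3SA muscle. Idi1 was at 6.39, 6.20, 6.55 and 5.31 against 8.83, 4.76, 4.76 and 6.55 CPM, and Sqle at 5.06, 4.42, 5.38 and 6.15 against 7.65, 4.26, 3.07 and 6.52 CPM. Fdft1 was at 71.6, 64.0, 65.8 and 65.6 against 75.4, 75.2, 68.9 and 47.7 CPM. In these 4 genes the genotypes overlapped. Lss was at 3.44, 3.63, 4.81 and 3.78 against 0.956, 4.0, 4.11 and 4.18 CPM, low in ERRα3SA muscle replicate 1, and Insig1 at 20.6, 19.2, 23.2 and 18.1 against 14.1, 16.3, 18.0 and 16.6 CPM, where the groups did not overlap. Fdps, at 0.316, 0, 0.189 and 0.229 against 0.0562, 0.198, 0.129 and 0.256 CPM, did not reach the count needed for the test in muscle, so that 6 of the 7 were tested. By edgeR 0 of 6 were called between ERRα3SA and WT muscle, with 0 at an unadjusted p under 0.05 and 1 by DESeq2, beside 639 of 14081 genes (4.54%), and 0 passed after adjustment, beside 0 of all genes (0%). The values were -0.19 ± 0.11 for Hmgcs1, 0.05 ± 0.22 for Idi1, 0.03 ± 0.15 for Fdft1, 0.06 ± 0.28 for Sqle and -0.20 ± 0.38 for Lss, with a median over the 6 of -0.08 beside 0.02 over all genes. The call by DESeq2 was Insig1 (-0.28, DESeq2 adjusted p = 0.803), which edgeR placed just short of the call at -0.29 ± 0.13 and called without WT muscle replicate 4 (-0.34) or ERRα3SA muscle replicate 3 (-0.33).

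Replicate 1 of ERRα3SA muscle had 19.3% of counts from mitochondrial genes against 9.15% to 10.8% in the other muscles, and the highest muscle marker sum (172663 CPM). Without it, 2506 genes were called in muscle in place of 639, and 0 of the 6 by edgeR, but 4 of the 6 changed sign, Lss to 0.10, Sqle to -0.14, Idi1 to -0.15 and Fdft1 to -0.03. Of the other lists in muscle, 0 of 12 sterol synthesis genes were called by edgeR (median -0.11), with 0 at an unadjusted p under 0.05. Of 6 SREBP genes 1 was called (median -0.05), Srebf1 (-0.66 ± 0.28), at 91.4, 86.6, 94.4 and 67.5 CPM in WT and 28.1, 66.0, 77.5 and 39.3 CPM in ERRα3SA muscle, lowest in replicates 1 and 4. Of 4 disposal genes tested 1 was called (median -0.11), Abcg1 (0.61 ± 0.25), higher, and of 6 fatty acid genes 2 (median -0.43), Acly (-0.40 ± 0.13) and Fasn (-0.79 ± 0.32), lower, beside 4.54% of all genes. ERRα3SA muscle replicate 4 had the highest fibroblast (2652 CPM) and macrophage (17.9 CPM) sums and the lowest muscle marker sum (76524 CPM) of the muscles. Its part in these calls was not tested. The test of whether the ERRα3SA effect differed between muscle and liver called 0 of the 7 genes by edgeR, with 0 at an unadjusted p under 0.05 and 0 by DESeq2, beside 874 of 15688 genes (5.57%), and 0 passed after adjustment, beside 0 of all genes (0%). Fdps entered it through liver alone, and its value is not given. The differences of the others were -0.39 ± 0.19 for Hmgcs1, -0.17 ± 0.32 for Idi1, -0.05 ± 0.19 for Fdft1, -0.10 ± 0.33 for Sqle, -0.16 ± 0.35 for Lss and -0.22 ± 0.18 for Insig1. Only Hmgcs1 and Insig1 stayed below 0 whichever library was left out. Sqle (0.13) and Idi1 (0.16) were above 0 without ERRα3SA liver replicate 4, Fdft1 (0.09) without ERRα3SA muscle replicate 4, and Lss (0.10) without ERRα3SA muscle replicate 1. Hmgcs1 was called without WT liver replicate 1 (-0.48), ERRα3SA liver replicate 1 (-0.44) or 2 (-0.47), or ERRα3SA muscle replicate 1 (-0.45). In that test edgeR called 0 of 12 synthesis genes (median -0.10), 0 of 6 SREBP genes (median -0.15), 0 of 6 fatty acid genes (median -0.55) and 0 of the 4 disposal genes that muscle expresses (Abca1, Abcg1, Mylip and Stard4), with 0 at an unadjusted p under 0.05, beside 5.57% of all genes. The other 5 disposal genes are at or near 0 in muscle. Of these the test called Soat2 (2.05 ± 0.96, edgeR adjusted p = 0.878), on muscle levels of 0 to 0.607 CPM, the highest in ERRα3SA muscle replicate 4.

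Between the tissues of WT mice the difference was large, and all 7 genes were called lower in muscle than in liver, beside 12534 of 14886 genes called (84.2%). All 7 passed after adjustment by edgeR, beside 12874 genes (86.5%), so that a call says little here. Insig1 was 29.7-fold lower (-4.89 ± 0.10, edgeR adjusted p = 8.11e-15), and Lss, Sqle and Idi1 were 25.3-, 25.2- and 24.1-fold lower. Hmgcs1 was 14.9-fold lower (-3.90 ± 0.12, edgeR adjusted p = 7.58e-13), whereas Fdft1 was 2.80-fold lower (-1.48 ± 0.09, edgeR adjusted p = 9.1e-10). Fdps, with 9, 0, 5 and 6 counts in WT muscle, passed the filter through liver alone and so had to differ, on levels that are uncertain in both tissues, and its fold is not given. Per kilobase, Fdft1 (18.0 ± 0.910 CPM per kb, SD) was the highest of the 7 in WT muscle, followed by Hmgcs1 (10.7 ± 0.998) and Insig1 (7.52 ± 0.827), then by Idi1 (2.02 ± 0.184) and Sqle (1.90 ± 0.260), which lay within their spread of each other, Lss (0.839 ± 0.131) and Fdps (0.133 ± 0.0965). Ctsb, which overlaps Fdft1 on the opposite strand, averaged 618 CPM in WT liver and 272 CPM in WT muscle. The part of its reads in the Fdft1 levels and in the small tissue difference of Fdft1 was not tested. All 12 listed synthesis genes were lower in muscle too, with a median of -4.53 beside 0.00 over all genes. Of 6 SREBP genes 5 were lower and Mbtps2 (0.91 ± 0.09) was higher (median -1.91), of 6 fatty acid genes 5 were lower (median -3.81), and of the 4 disposal genes that muscle expresses Abca1, Abcg1 and Stard4 were lower and Mylip (1.35 ± 0.11) was higher.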

How the data were processed

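RNA-seq of liver and muscle was compared in 31 libraries of 8 groups. The authors deposited gene counts in 2 tables, 1 for the insulin experiment and 1 for the ERRα3SA experiment, made per the submitters' processing notes by alignment with STAR to mm10 (strand setting not stated). Ensembl identifiers were matched to GENCODE vM21, which gave symbols to 97.8% and 99.9% of them. Each table was scaled separately by TMM, and each of 9 comparisons was fitted on the groups compared with edgeR 4.0.16 in R 4.3.3 (filterByExpr, quasi-likelihood F test, p adjusted by Benjamini and Hochberg over all genes tested). The interactions used all 4 groups of their experiment. Calls followed the thresholds of the study, which used DESeq2 (p below 0.05 before adjustment, 1.2-fold or more), and standard errors are the log2 fold change over the square root of F. Correlations used log2 CPM with a prior count of 2, and levels per kilobase used the main transcript. The scripts were tested on simulated data. These p-values set the difference between groups against the spread between these samples, each taken as independent.

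The 7 genes and the lists were chosen with earlier results of these data known. The genes named are the 7 in every comparison, the list genes called in a comparison and up to 4 with the largest values, Esrra, and the 10 genes most like the mean of the 7 over 15 livers, with predicted genes passed over; some genes are not reported here. Features of single livers (Scd1, Fasn, Pmvk, Insig2 and Srebf1 in ERRα3SA liver replicate 4) were chosen after their values were seen. Alternatives were RLE scaling, DESeq2 1.42.0, no filter on low counts, all groups in 1 fit, replicate number as a block, and each sample left out in turn.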

Additional observations from a re-analysis of the deposited data

Results flagged for a closer look

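For each gene in each group of 4 livers or muscles, the gap between the most extreme sample and its nearest neighbour was divided by the range of the group, for the 7 genes and Esrra. Of 56 pairs of a gene and a group tested, 8 exceeded the 95% critical value of Dixon for 4 samples, where chance alone would pass about 1 test in 20. KO saline replicate 4 was far above its group for Sqle (0.886) and Fdps (0.885). ERRα3SA liver replicate 4 was far above its group for Idi1 (0.9), WT insulin replicate 1 for Insig1 (0.831) and WT insulin replicate 2 for Esrra (0.876). Far below their groups were WT liver replicate 4 for Sqle (0.889), WT saline replicate 2 for Fdft1 (0.842) and ERRα3SA muscle replicate 1 for Lss (0.941). The genes vary together, so that flags in the same library are not independent, and the cause was not tested.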

How the results depend on the processing

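Of the 7 genes, those called with insulin in WT livers went from 3 to 1 when all groups shared a fit, those between KO and WT livers given insulin from 3 to 0, and those in ERRα3SA muscle from 0 to 1. DESeq2 also called 1 in ERRα3SA muscle. Whether replicate numbers pair samples is not stated, nor whether liver and muscle libraries of the ERRα3SA experiment share mice. Correlations of the same number across groups ran from -0.18 to 0.24, which cannot settle it. The main tests treated all libraries as separate. With the number as a block, the calls between KO and WT livers given insulin were 1, and Sqle was called lower with insulin in WT livers (-0.39). With no filter on low counts, Hmgcs1 was called lower with insulin in WT livers (-0.53). Under that setting Idi1 was also called lower in KO than WT livers given insulin (-0.86). The cause was not tested in any of these. Over 85 refits with a sample left out, calls ranged from 1 to 4 for insulin in WT livers, 0 to 3 in KO livers, 0 to 3 for KO against WT with saline, 1 to 4 with insulin, 0 to 1 for ERRα3SA in muscle and 0 to 1 for its difference between tissues. Among all genes the same refits called 1796 to 2511, 1729 to 2480, 1284 to 1984, 818 to 1778, 378 to 2506 and 710 to 2766, in that order. Calls among the 7 stayed at 0 for the interaction and ERRα3SA in liver and at 7 between tissues. There the refits called 886 to 1569, 507 to 892 and 12609 to 12772 of all genes. Sqle in KO against WT livers with saline reversed, from 0.28 to -0.95 without KO saline replicate 4 (range -0.95 to 0.68). Among all genes, calls moved by more than 1.5 times for KO against WT livers given insulin (818 in place of 1365 without KO insulin replicate 2), ERRα3SA liver (1050 in place of 651 with no filter) and ERRα3SA muscle, where 639 became 1071 with no filter, 1013 in a shared fit, 334 with the block, 378 or 397 without WT muscle replicate 3 or 4, and 2506 without ERRα3SA muscle replicate 1, which also took the difference between tissues from 874 to 2766. RLE scaling changed no count of the 7 by this measure. Groups of 3 or 4 leave effects smaller than these errors unseen, and counts of Fdps are too few to test between muscles.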
